A study of Mus musculus with 15 samples.

Results

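Wild-type microglia collected 14 days after an experimental stroke were set against microglia of sham-operated wild-type mice. The comparison used 2 of the 15 libraries of the study, 1 for day 14 and 1 for sham, and all 24421 genes of their count table. The study followed microglia, the resident macrophages of the brain, after transient middle cerebral artery occlusion (MCAO), a stroke model in which a filament blocks the vessel. The day 14 cells came from C57BL/6J mice after 60 min of occlusion and then reperfusion, and the stroke surgery was done in males of 8 to 24 weeks. The sham cells came from C57BL/6J mice that had the same operation with no occlusion. Cells were freed from perfused forebrain with collagenase, cleaned on a Percoll gradient and sorted for intermediate CD45 and CD11b. They were also stained for CD31, the endothelial adhesion protein encoded by Pecam1, and how CD31 entered the gate is not given in the sources used here, nor is the number of mice behind each library.

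Other libraries serve here as values side by side. They are the wild-type libraries of days 1, 6 and 28, from the same table, and the day 14 EGFP-positive and EGFP-negative libraries of Igf1-Egfp reporter mice, a transgenic line in which EGFP marks cells that use the Igf1 gene. The reporter libraries were sequenced on another instrument and scaled in their own table, so their levels are given beside those of the wild-type libraries as values, and no difference between the tables was tested. Levels are given as CPM (counts per 1e6 counts of a library), scaled by the trimmed mean of M-values (TMM), and CPM is not corrected for gene length, so levels are read between libraries and not between genes.

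Microglia of the undisturbed brain carry a set of homeostatic genes, such as P2ry12 and Tmem119, which depends on colony-stimulating factor 1 and transforming growth factor beta (TGF-beta) signals. In injured or degenerating tissue they take up myelin and cell debris, and many then express a second set of genes for lipid transport, lysosomal proteolysis and secreted factors, known as the disease-associated microglia program. Interferons act through a complex that holds STAT2 and IRF9 on response elements in promoters, and the induced genes encode antiviral enzymes and GTPases. The brain's vessels, built of endothelial and mural cells, lie next to microglia and remodel after a stroke.

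On day 14 the disease-associated microglia genes and the interferon-stimulated genes stood above sham, the homeostatic microglia genes stood below it, and markers of endothelial, mural and matrix-producing cells stood far above it. A gene was counted as past the size rule at a log2 ratio of at least 2 or at most -2, on CPM plus 1, with at least 20 CPM in the day 14 or the sham library. Of 7833 genes with that level, 1008 (12.9%) were past the rule higher on day 14 and 534 (6.82%) were past it lower. A gene very low in 1 library that reaches 20 CPM in the other is past the rule through the filter itself. List members under 20 CPM in sham were considered only if they reached it on day 14, which raises the higher share of such lists. Counts for lists below are to be read beside the 12.9% higher and 6.82% lower over all genes considered. Each condition had 1 library, which gives no estimate of the variation between animals, so no test was made, and the intervals given with fold ratios (Clopper-Pearson, 95%) cover counting error between these 2 libraries. The median log2 ratio was -0.06 over the 11163 genes with at least 5 CPM in 1 of both libraries, and list medians below use members with that level.

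**Figure D1:**
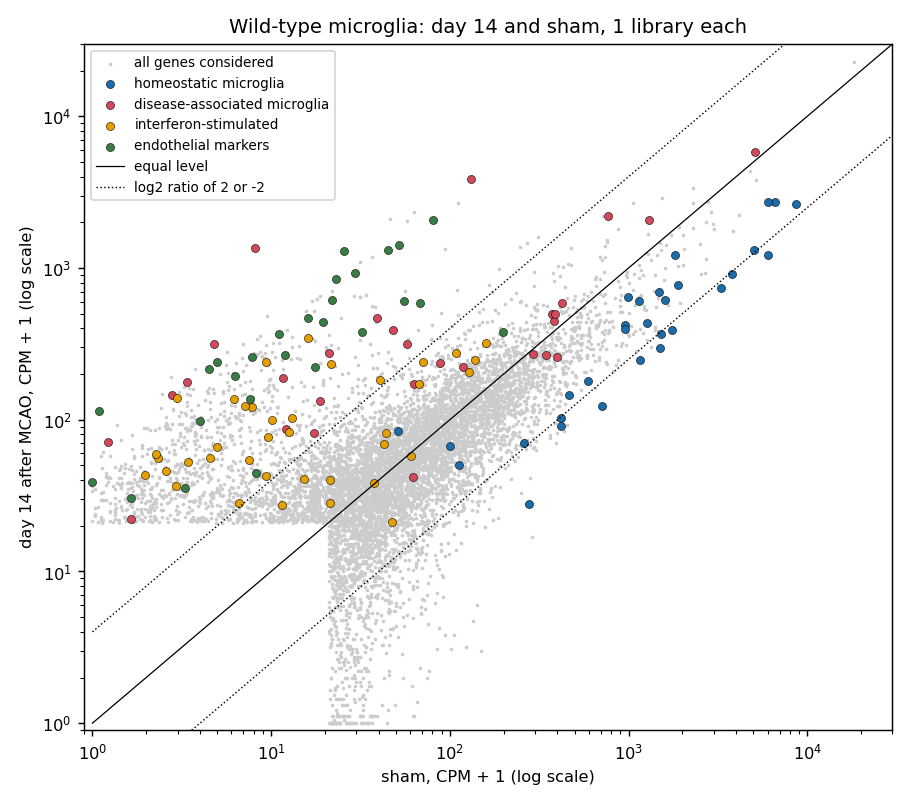
Each grey point is 1 of the 7833 genes considered, at its CPM plus 1 on day 14 (vertical, log scale) and in sham (horizontal, log scale), with 4 gene lists in colour. All homeostatic genes but Crybb1 lie below the line of equal level, and most disease-associated, interferon-stimulated and endothelial genes lie above it, with the endothelial markers farthest out.

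The day 14 library was the shallowest of its table, with 16.8 M counts (1e6 counts) against 52.6 M in sham, and 11823 genes had a count on day 14, against 16009 in sham. A level of 20 CPM rested on 368 counts on day 14 (95% Poisson interval 18.03 to 22.2 CPM) and on 1067 counts in sham (18.8 to 21.2 CPM). Genes with 0 counts on day 14 made up 20.8% of the 1464 genes at 5 to 10 CPM in sham, 9.15% of the 1826 at 10 to 20 CPM, 1.48% of the 2638 at 20 to 50 CPM and none of those above. The libraries also differed in the share of even values among counts of 1 to 20, at 89.3% on day 14 and 76.5% in sham.

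Homeostatic microglia genes were lower on day 14 nearly throughout the list. Of the 30 genes of the list, all with at least 20 CPM, 11 were past the size rule, all lower, the median log2 ratio was -1.69, and 29 of 30 ratios were below 0. P2ry12, the ADP receptor that guides microglial processes (chromosome 3, 59216272 to 59262871, GRCm38), stood at 1215 CPM on day 14 and 6022 CPM in sham, a fold ratio of 0.202 (0.199 to 0.2045). Its relative P2ry13 stood at 296 CPM on day 14 and 1508 CPM in sham, and Tmem119, a microglial surface marker, at 245 CPM on day 14 and 1163 CPM in sham. The lowest ratio belonged to Gpr165, an orphan receptor gene, at 26.9 CPM on day 14 and 278 CPM in sham (log2 ratio -3.32). The other genes past the rule were Maf, Tmem173, Gpr34, Selplg, Tgfbr1, Sall1 and Slc2a5. In bulk RNA of sorted cells, fewer cells of a type and less RNA per cell of that type cannot be told apart.

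Several defining genes stayed short of the rule in spite of large differences. Cx3cr1, the fractalkine receptor, had a log2 ratio of -1.93, at 1322 CPM on day 14 and 5027 CPM in sham. Csf1r, the receptor on which microglial survival depends, had a ratio of -1.70, at 2657 CPM on day 14 and 8649 CPM in sham. The sialic acid binding receptor gene Siglech had a ratio of -1.55. The uptake receptor gene Mertk (-0.64), Ecscr (-0.59) and the matrix protein gene Sparc (-0.59) lay closer to sham, and the crystallin gene Crybb1 alone had a ratio above 0, at 83.3 CPM on day 14 and 50.3 CPM in sham. The homeostatic list summed to 20299 CPM on day 14 and 60934 CPM in sham. In the separately scaled day 14 reporter libraries it summed to 86326 CPM with EGFP and 94505 CPM without it. All 11 lower members had at least 20 CPM in 1 or both of these, and 10 had it in both. The difference between the day 14 libraries was not tested.

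**Figure D2:**
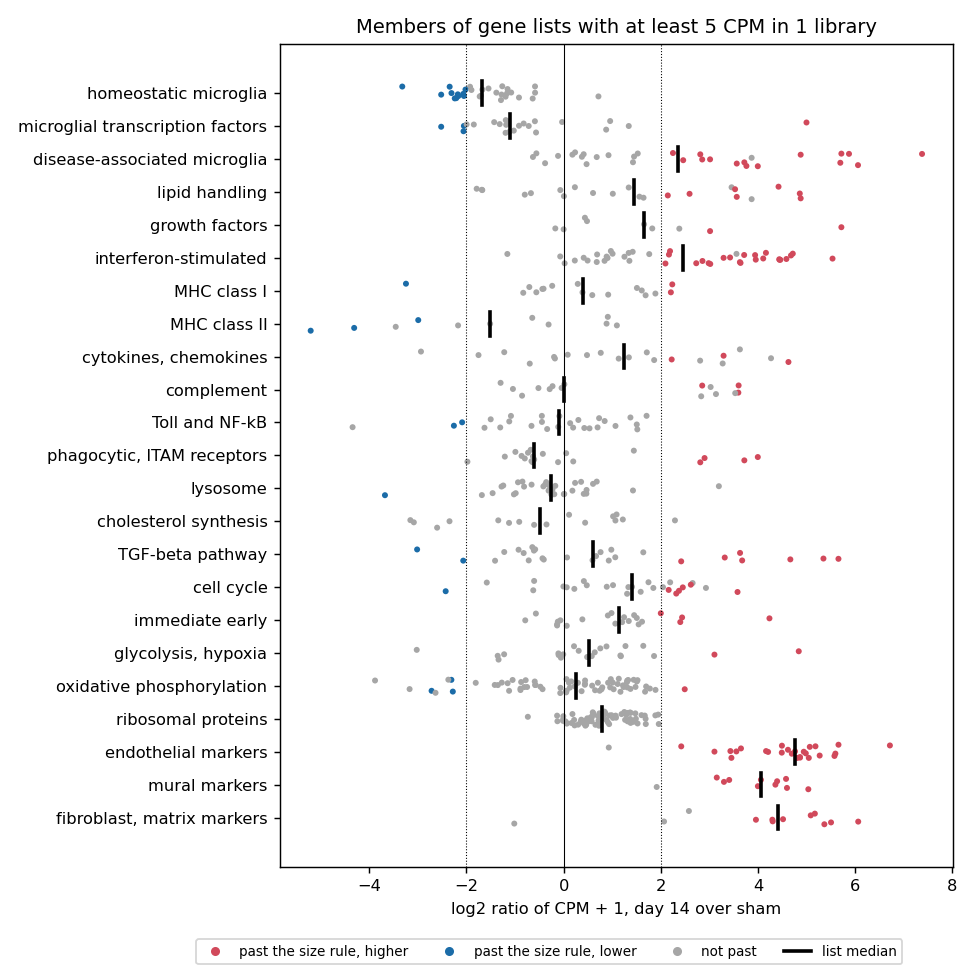
Each point is the log2 ratio, day 14 over sham, of 1 list member with at least 5 CPM in 1 library, red or blue where past the size rule, and the black bar is the list median. Of the homeostatic genes 29 of 30 lie left of 0, as do 19 of 23 microglial transcription factors, disease-associated and interferon-stimulated genes spread far to the right, ribosomal protein genes form a narrow band near their median of 0.79, and nearly all endothelial, mural and matrix markers lie far to the right.

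Most transcription factors of the microglial list stood below sham, at 19 of 23. Of 23 factors considered, 3 were past the size rule lower and 1 higher, with a median of -1.11. Sall1, a zinc-finger factor of microglial identity, stood at 366 CPM on day 14 and 1523 CPM in sham, Maf at 123 CPM on day 14 and 709 CPM in sham, and Bhlhe41 at 71.4 CPM on day 14 and 301 CPM in sham. Spi1, which encodes the macrophage factor PU.1, lay at the edge of the rule, at 38.2 CPM on day 14 and 155 CPM in sham. The interferon regulatory factor genes Irf5 (-1.85) and Irf8 (-1.43), Cebpa (-1.32) and Mef2c (-1.19) were short of it. Bhlhe40, a repressor expressed by activated macrophages, was the factor past the rule higher, at 229 CPM on day 14 and 6.204 CPM in sham, a fold ratio of 36.97 (33.1 to 41.5). Egr1 (1.34), Cebpb (0.96) and Elk3 (0.88) were the other factors above sham. Yy1, the factor deleted elsewhere in the study, stood at 48.96 CPM on day 14 and 87.4 CPM in sham, and Zfp384 at 126 CPM on day 14 and 129 CPM in sham.

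The TGF-beta pathway had members far from sham on both sides. Among its 25 genes considered, 7 were past the size rule higher and 2 were past it lower, with a median of 0.59. The lower ones were Tgfbr1, the type I receptor, at 908 CPM on day 14 and 3803 CPM in sham, and Nrros, which encodes the protein that presents latent TGF-beta1 on microglia, at 18.5 CPM on day 14 and 157 CPM in sham. The ligand gene Tgfb1 stood at 146 CPM on day 14 and 342 CPM in sham, short of the rule. The higher ones included the other ligands Tgfb2 (65.3 CPM on day 14, 4.35 CPM in sham) and Tgfb3 (27.1 CPM on day 14, 1.20 CPM in sham), the co-receptor Tgfbr3 and the endothelial type I receptor Acvrl1. Id1 and Id3, targets of bone morphogenetic protein signals, had the largest ratios of the list, at 479.7 and 228 CPM on day 14, against 8.53 and 4.61 CPM in sham. Of the 7 higher genes, 1 (Acvrl1) reached 20 CPM in a day 14 reporter library, where Id1 had 17.7 CPM with EGFP and 0 counts without it. Vascular markers moved in the same direction as these 7 genes, and their part in the result was not tested.

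The disease-associated microglia program stood high without the whole list taking part. Among its 29 genes considered, 15 were past the size rule, all higher, and the median was 2.36. Spp1, the osteopontin gene, whose product is a secreted matrix protein, had the highest ratio of all genes past the rule, with 24807 counts on day 14 and 380 in sham, or 1349.6 CPM on day 14 and 7.12 CPM in sham, a fold ratio of 189.5 (171 to 210.2). Cst7, the gene of the cathepsin inhibitor cystatin F (chromosome 2, 150570415 to 150578944), stood at 317 CPM on day 14 and 3.77 CPM in sham. Gpnmb, a glycoprotein gene of lipid-laden macrophages, stood at 70.8 CPM on day 14 and 0.225 CPM in sham, where it had 12 counts. Igf1, a growth factor gene, stood at 176 CPM on day 14 and 2.36 CPM in sham, a fold ratio of 74.5 (62.3 to 89.7). Ch25h, whose enzyme makes the signalling oxysterol 25-hydroxycholesterol, stood at 144 CPM on day 14 and 1.80 CPM in sham.

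The members past the rule also held receptors and lipid genes. Axl, a receptor for the removal of dying cells, stood at 186 CPM on day 14 and 10.7 CPM in sham, Clec7a, the beta-glucan receptor dectin-1, at 275 CPM on day 14 and 19.96 CPM in sham, and the integrin gene Itgax at 86.5 CPM on day 14 and 11.1 CPM in sham. Apoe, the lipid carrier of the brain (chromosome 7, 19696109 to 19699188), stood at 3862 CPM on day 14 and 130.3 CPM in sham, and Lpl, lipoprotein lipase, at 464 CPM on day 14 and 38.3 CPM in sham. Members short of the rule and near sham included receptor and lysosomal genes, the chemokine gene Ccl6 (-0.56) and the protease inhibitor gene Timp2 (0.38). Trem2, the receptor on which the later stage of the program depends, had a log2 ratio of -0.63, its adaptor Tyrobp -0.11, Cd68 -0.38, and the cathepsin genes Ctsd, Ctsz, Ctsl and Ctsb between 0.18 and 0.68. All 15 higher members had at least 20 CPM in 1 or both day 14 reporter libraries, and 12 had it in both.

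The time points did not share 1 order among these genes. Spp1 was at 7.12 CPM in sham and then at 5915 (day 1), 745 (day 6), 1349.6 (day 14) and 126 CPM (day 28). Cst7 was at 3.77 CPM in sham and then at 21.1 (day 1), 135 (day 6), 317 (day 14) and 172 CPM (day 28), and Clec7a likewise had its highest level on day 14. Igf1, Gpnmb, Apoe and Axl had theirs on day 6. Lpl was at 38.3 CPM in sham and then at 2001 (day 1), 426 (day 6), 464 (day 14) and 207 CPM (day 28).

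**Figure D3:**
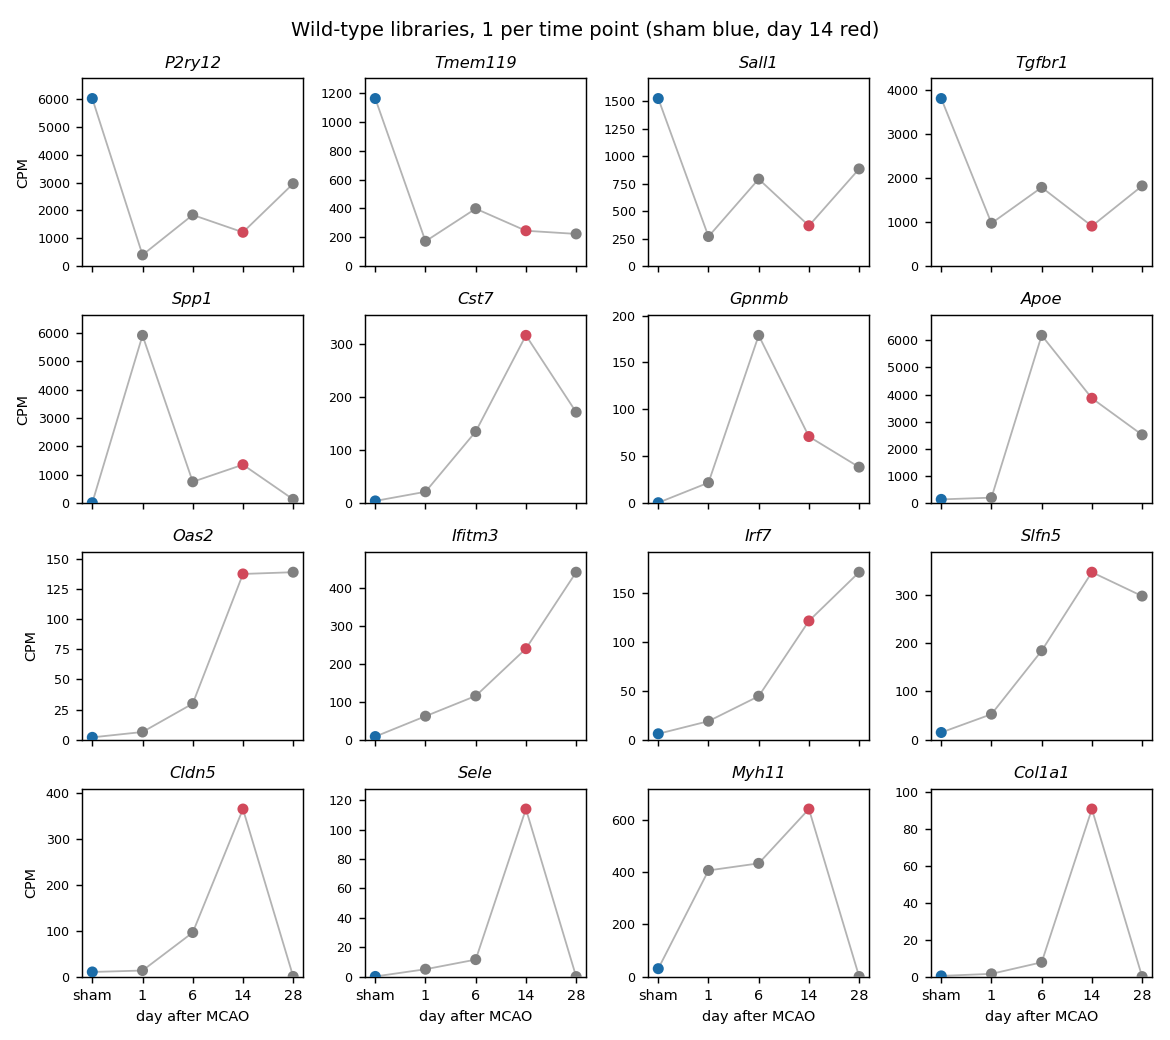
CPM of 16 genes in the wild-type libraries of sham (blue) and days 1, 6, 14 (red) and 28, 1 library per time point, on linear axes from 0. P2ry12, Tmem119, Sall1 and Tgfbr1 stand below sham at every later time. Oas2, Ifitm3, Irf7 and Slfn5 stand higher at each time up to day 14, and Cldn5, Sele, Myh11 and Col1a1 peak on day 14 and are near 0 on day 28.

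Lipid handling genes stood high for part of the list. Of 20 considered, 7 were past the size rule, all higher, with a median of 1.45. Besides Apoe and Lpl these included the phospholipid transfer gene Pltp (245 CPM on day 14, 10.5 CPM in sham), the fatty acid binding gene Fabp3 (40.04 CPM on day 14, 0.412 CPM in sham), the lipoprotein receptor gene Vldlr, and the lipid droplet coat gene Plin2 (71.9 CPM on day 14, 15.5 CPM in sham). The cholesterol exporter gene Abca1 had a log2 ratio of 0.01, at 1261 CPM on day 14 and 1256 CPM in sham, and Abcg1 0.23. The lysosomal cholesterol exporter gene Npc1 had a ratio of -1.68 and Lrp1, an endocytic receptor, -0.80. None of the 8 cholesterol synthesis genes considered was past the rule.

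Lysosomal and uptake genes lay mostly near or a little below sham. Of 32 lysosomal genes considered, 1 was past the size rule, the membrane protein gene Cln3, lower at 2.28 CPM (42 counts) on day 14 and 41.0 CPM in sham. The lysosomal median was -0.27. The highest ratio was that of the tetraspanin gene Cd63, at 236 CPM on day 14 and 87.0 CPM in sham. Of 19 phagocytic and ITAM-linked receptor genes, 4 were past the rule higher, namely Axl, Clec7a, the bridging protein gene Mfge8 (87.8 CPM on day 14, 10.9 CPM in sham) and the inhibitory receptor gene Lilrb4a, whose close paralog can share its reads. The list's median was -0.62. Scaled to the median of 12 core microglia genes, an alternative chosen after the data were seen, the lysosomal and receptor medians were 0.89 and 0.57, so their sign depends on the scaling.

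Interferon-stimulated genes stood above sham over most of the list. Among 38 considered, 23 were past the size rule, all higher, 36 of 38 ratios were above 0, and the median was 2.46. Oas2, a sensor enzyme that makes 2-5 oligoadenylates (chromosome 5, 120730333 to 120749853), stood at 137 CPM on day 14 and 1.99 CPM in sham, a fold ratio of 69.2 (56.96 to 84.9). Its relatives Oas3 and Oasl2 stood at 42.0 and 136 CPM on day 14, against 0.975 and 5.21 CPM in sham. Ifitm3, a membrane protein that blocks viral entry, stood at 239.8 CPM on day 14 and 8.40 CPM in sham, and Slfn5 at 347 CPM on day 14 and 15.0 CPM in sham.

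The list covered sensors, effectors and the signalling chain itself. Irf7, the factor that amplifies type I interferon, stood at 122 CPM on day 14 and 6.11 CPM in sham, and Stat2 at 182 CPM on day 14 and 39.7 CPM in sham. Irf9, at 80.3 CPM on day 14 and 43.0 CPM in sham, was short of the rule. Cxcl10, a T cell attracting chemokine, stood at 98.4 CPM on day 14 and 9.15 CPM in sham. Ifit1, Ifit2, Ifit3, Rsad2, Mx1, Zbp1, Cmpk2 and Usp18 were past the rule with log2 ratios from 2.10 to 3.95, while Ifit3 and Ifit3b are near-identical copies whose reads may be split. The sensors Ddx58 (-0.07) and Ifih1 (1.76) were short of it, and Herc6 had the lowest ratio, at 20.3 CPM on day 14 and 46.5 CPM in sham.

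The list's medians, all set against the same sham library, were 0.66 (day 1), 2.12 (day 6), 2.46 (day 14) and 1.81 (day 28). They used the members with at least 5 CPM in that day's or the sham library, 38, 43, 42 and 38 in turn. Oas2 was at 1.99 CPM in sham and then at 6.44 (day 1), 29.96 (day 6), 137 (day 14) and 139 CPM (day 28). Of the 23 higher members, 21 had at least 20 CPM in 1 or both day 14 reporter libraries, and 15 had it in both. Irf7 there had 253 CPM with EGFP and 102 CPM without it, and Ifi44, at 58.3 CPM on day 14 and 1.26 CPM in sham, at 5.21 CPM in EGFP-positive cells and 0 counts in EGFP-negative cells.

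Promoter sequence is shown for 6 of these genes because the element through which interferons act can be read in it. The motif searched was GAAANNGAAA, the core of the interferon-stimulated response element, on both strands and in windows from 250 bases before to 50 after each start site in RefSeq's promoters of build GRCm38.p6. No other motif was searched. It was found in 10 of the 18 genes past the rule that have a promoter entry (55.6%; 23 were past the rule), in 11 of 15 list genes not past it (73.3%) and in 1079 of the 27025 genes of the table (3.99%). The windows lie at chr7:141010703-141010772 (Ifitm3, minus strand), chr5:120777695-120777764 (Oas3, minus strand), chr11:82951917-82951986 (Slfn5, plus strand), chr19:34640755-34640824 (Ifit1, plus strand), chr12:26456533-26456602 (Rsad2, minus strand) and chr5:92349063-92349132 (Cxcl10, minus strand). Each is written 5′ to 3′ on the strand of its gene, with every match of the motif or its reverse complement in the window in capitals, 2 in Ifitm3 and Ifit1 and 1 in each of the others.
Ifitm3: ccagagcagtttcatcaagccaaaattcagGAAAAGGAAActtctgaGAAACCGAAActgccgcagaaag
Oas3: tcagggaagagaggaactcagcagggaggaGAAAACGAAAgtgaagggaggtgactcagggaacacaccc
Slfn5: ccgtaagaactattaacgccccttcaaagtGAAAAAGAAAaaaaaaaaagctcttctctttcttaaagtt
Ifit1: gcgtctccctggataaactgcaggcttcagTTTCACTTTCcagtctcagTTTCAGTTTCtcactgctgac
Rsad2: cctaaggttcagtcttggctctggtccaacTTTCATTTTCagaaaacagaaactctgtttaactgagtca
Cxcl10: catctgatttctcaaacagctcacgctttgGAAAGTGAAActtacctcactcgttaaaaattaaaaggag
The centre of the match lay 70 bases before the start in Oas3, 99 and 80 in Ifit1, 115 in Rsad2, 150 in Slfn5 and 208 in Cxcl10, and both matches of Ifitm3 lay just after the start. A match is a description of the letters in this window, and it was not rarer among list genes not past the size rule, whatever their level, than among those past it.

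Antigen presentation genes of class I and class II lay on different sides of sham by their medians. Among 17 class I pathway genes considered, 2 (11.8%) were higher past the size rule and 1 (5.88%) was lower, with a median of 0.39. These shares were near the 12.9% higher and 6.82% lower over all genes considered. H2-D1, a classical class I heavy chain, stood at 149 CPM on day 14 and 31.5 CPM in sham, H2-K1 at 948 CPM on day 14 and 294 CPM in sham, short of the rule, and H2-Q4, one of several similar copies, at 225 CPM on day 14 and 47.1 CPM in sham. H2-M3 was the lower one, at 1.31 CPM (24 counts) on day 14 and 20.9 CPM in sham. The class II list had 7 genes considered, among them the costimulatory genes Cd80 and Cd86 and no classical class II chain gene. Of these, 3 (42.9%) were past the rule lower and 0 higher, against 6.82% lower over all genes considered. The list median was -1.51. H2-DMa, a subunit of the peptide loading factor (chromosome 17, 34119541 to 34139101), had 4 counts or 0.218 CPM on day 14 and 43.95 CPM in sham, while the day 14 reporter libraries held it at 369 CPM with EGFP and 277 CPM without. H2-Ob stood at 3.26 CPM on day 14 and 32.9 CPM in sham, while the invariant chain gene Cd74 stood at 49.5 CPM on day 14 and 26.4 CPM in sham. The third lower gene was Cd80, a costimulatory ligand, with 2 counts on day 14 and 21.0 CPM in sham. With at least 10 counts required in both libraries H2-Ob was the 1 gene still past the rule, and the class II median was -0.48.

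Inflammatory signal genes differed between lists. Of 14 cytokine and chemokine genes considered, 3 (21.4%) were past the size rule, all higher, with a list median of 1.24. Over all genes considered 12.9% were higher. Cxcl1, a neutrophil attracting chemokine, stood at 51.5 CPM on day 14 and 1.125 CPM in sham and was at or near 0 in both day 14 reporter libraries. Il1b had a log2 ratio of 2.22, with 478 counts on day 14 and 255 counts in the deeper sham library. Tnf (1.86) and Ccl3 (1.13) were short of the rule, Ccl2 stood at 77.0 CPM on day 14 and 72.6 CPM in sham, and Il1a had a ratio of -0.70. Of 11 complement genes, 3 (27.3%) were past the rule higher, C3 (49.2 CPM on day 14, 3.15 CPM in sham), C4b (72.1 CPM on day 14, 5.02 CPM in sham) and Itgax. The genes C1qa, C1qb and C1qc had ratios from -0.52 to 0.01. Of 26 Toll and NF-kB genes, the receptor genes Tlr9 (62.5 CPM on day 14, 303 CPM in sham) and Tlr5 (11.4 CPM on day 14, 51.9 CPM in sham) were past the rule lower and none higher. These made up 7.69% of the list, near the 6.82% lower over all genes considered.

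Growth factor genes were few at this level. Of 7 considered, Igf1 and Csf1, the ligand of CSF1R, were past the size rule higher, Csf1 at 388 CPM on day 14 and 47.2 CPM in sham. Pdgfb stood at 254 CPM in both libraries, and Grn, progranulin, at 866 CPM on day 14 and 975 CPM in sham.

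Cell cycle genes were higher in part of the list. Among 14 considered, 6 (42.9%) were higher past the size rule and 1 (7.14%) was lower, with a median of 1.41. Over all genes considered 12.9% were higher and 6.82% lower. All 6 higher genes were under the minimum level of the rule in sham and reached it on day 14. The higher share therefore followed in part from the filter. Mki67, the proliferation marker, stood at 101 CPM on day 14 and 18.7 CPM in sham, and on days 1, 6 and 28 at 43.6, 296 and 217 CPM. Kif20a, Kif11 and Cenpf, which act in mitosis, had ratios of 3.58, 2.62 and 2.32 and levels of 20.7 to 28.3 CPM on day 14, against 1.05 to 4.87 CPM in sham. Among replication genes Mcm5 was past the rule (2.16), Mcm6 (1.59), Mcm4 (1.41) and Rrm1 (1.33) were short of it, and Mcm3 (0.42) and Pcna (0.22) lay nearer to sham. The cyclin gene Ccnd1 stood at 106 CPM on day 14 and 107 CPM in sham, and Cdk2 was the lower gene, with 54 counts on day 14.

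Immediate early genes, which also respond to tissue dissociation, had a median of 1.13, with 4 of 21 past the size rule, all higher. Nr4a1, an orphan nuclear receptor gene, stood at 331 CPM on day 14 and 16.6 CPM in sham, and Fosb at 1459 CPM on day 14 and 268 CPM in sham. Fos (1.61) and Egr1 (1.34) were short of the rule, and Jun stood at 4340.5 CPM on day 14 and 4762 CPM in sham.

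Metabolic genes showed small shifts with few members past the rule. Of 20 glycolysis and hypoxia genes, Slc2a1, the glucose transporter of the blood-brain barrier, stood at 587 CPM on day 14 and 67.3 CPM in sham, and Ndrg1 at 317 CPM on day 14 and 10.1 CPM in sham. The list had 13 ratios above 0 and 7 below, with a median of 0.53. Hif1a had a ratio of 1.27, and of the hexokinase genes Hk1 (1.64) stood above sham and Hk2 (-1.22) and Hk3 (-1.36) below it. Of 43 respiratory chain genes, 1 was past the rule higher and 3 lower, with a median of 0.26. None of the 73 cytosolic ribosomal protein genes was past the rule, yet 68 of 73 ratios were above 0, with a median of 0.79 and a range from -0.13 (Rps15a) to 1.96 (Rpl39).

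Endothelial markers stood far above sham nearly without exception. Of 27 considered, 26 were past the size rule higher, and the median was 4.76. Cldn5, the tight junction claudin of the blood-brain barrier (chromosome 16, 18776847 to 18778262), stood at 364 CPM on day 14 and 10.05 CPM in sham, Vwf, von Willebrand factor, at 1411 CPM on day 14 and 51.0 CPM in sham, and Podxl, a sialomucin, at 1286 CPM on day 14 and 24.5 CPM in sham. Pecam1, whose product CD31 was stained for the sort, stood at 607 CPM on day 14 and 54.5 CPM in sham. The barrier transporter genes Slco1a4 and Abcb1a stood at 839.9 and 931 CPM on day 14, against 22.1 and 28.4 CPM in sham. Sele, the adhesion molecule E-selectin of activated endothelium, stood at 114 CPM on day 14 and 0.094 CPM (5 counts) in sham, and P-selectin (Selp) at 37.6 CPM on day 14 and 0 counts in sham. The single member short of the rule was Eng (0.93), at 379 CPM on day 14 and 199 CPM in sham.

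Mural and matrix markers stood high as well. All 10 mural genes considered were past the rule higher, with a median of 4.06, among them Notch3 (201 CPM on day 14, 5.15 CPM in sham), the pericyte receptor gene Pdgfrb (79.2 CPM on day 14, 2.81 CPM in sham) and the smooth muscle myosin gene Myh11 (640 CPM on day 14, 30.3 CPM in sham). All 9 fibroblast and matrix genes considered were past it too, with a median of 4.41. Summed sham levels were 88.2 CPM for the mural list and 98.4 CPM for the matrix list. Most of the members considered thus reached 20 CPM only on day 14, so these shares followed in part from the filter. Col1a1, fibrillar collagen, stood at 91.0 CPM on day 14 and 0.375 CPM in sham, the basement membrane collagen gene Col4a1 at 338 CPM on day 14 and 16.2 CPM in sham, and Fn1, fibronectin, which macrophages also make, at 2095 CPM on day 14 and 45.2 CPM in sham.

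The summed vascular levels differed between the wild-type time points, and those of the separately scaled reporter libraries are given beside them. The endothelial list summed to 734 CPM in sham, then 896 (day 1), 5696 (day 6), 13585 (day 14) and 117 (day 28). The sum was 1189 CPM in the EGFP-positive day 14 reporter library and 292 CPM in the EGFP-negative one. The mural list summed to 1649 CPM in the wild-type day 14 library and 88.2 CPM in sham, while the reporter libraries had 43.3 CPM with EGFP and 0 counts without it. Of the 26 higher endothelial genes 17 reached 20 CPM in 1 or both reporter libraries, and 1 reached it in both. Of the 10 mural genes 1 reached it in 1 or both, and 0 in both. Over all 1008 higher genes 24.3% reached it in 1 or both and 10.7% in both. Of the 12 genes with the highest ratios in the comparison, 6 were under 5 CPM in both reporter libraries, namely Sele, Col1a1, Sox7, Nxpe2, Scn2a1 and 4930578C19Rik. Whether vascular cells or their RNA entered the day 14 sort was not tested, and their part in the results for other lists was not tested.

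**Figure D4:**
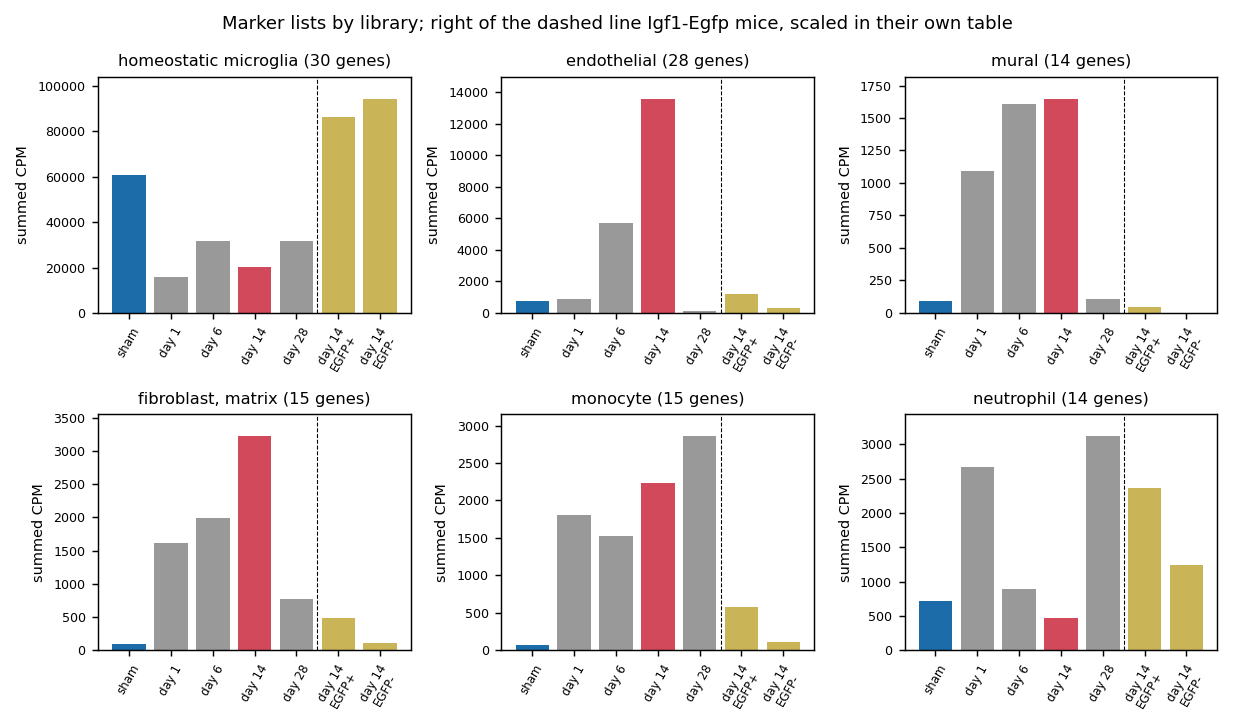
Bars give the summed CPM of 6 marker lists in the 5 wild-type libraries (sham blue, day 14 red) and, right of the dashed line, in the 2 day 14 reporter libraries, which were scaled in their own table. Among the 5 wild-type libraries the endothelial, mural and matrix sums are highest on day 14, and the neutrophil sum is lowest there.

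Markers of blood leukocytes gave a mixed picture. Of the monocyte list 3 genes reached 20 CPM and all 3 were past the rule higher, Fn1, Itga4 and Gda. Itga4 and Gda reached 20 CPM on day 14 and not in sham. The list's median was 3.36 over its 8 members with at least 5 CPM. Its sum was 2234 CPM on day 14, of which Fn1 gave 2095 CPM, and 70.0 CPM in sham, of which Fn1 gave 45.2 CPM. The defining monocyte genes Ccr2 (0.925 CPM on day 14, 7.55 CPM in sham) and Ly6c2 (0.925 CPM on day 14, 1.86 CPM in sham) stayed under 1 CPM on day 14. Of the neutrophil list 7 genes had 0 counts on day 14, S100a8 stood at 0.326 CPM on day 14 and 7.80 CPM in sham, and Lcn2, which glial and vascular cells also make, stood at 62.8 CPM on day 14 and 8.36 CPM in sham. The border macrophage genes Mrc1 (2 counts on day 14, 24.5 CPM in sham), Cd163 (0 counts on day 14, 16 in sham) and Pf4 (0 counts in both) were at or near 0, while Dab2 stood at 217 CPM on day 14 and 36.0 CPM in sham. No dendritic cell, T and NK cell, B cell, neuron or erythroid marker reached 20 CPM in either library. All 12 core microglia genes, the defining markers of the labelled cell type, had at least 20 CPM in both libraries, summing to 11315 CPM on day 14 and 33370 CPM in sham.

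The lowest ratios of the comparison rested on few counts. Among the 12 lowest, Patz1, Zfp619 and Sdk1 had 0 counts on day 14, which allows up to 0.163 CPM, and stood at 34.4 to 43.4 CPM in sham. Of the 534 lower genes 39 had 0 and 93 had under 10 counts on day 14, and of the 1008 higher genes 5 had 0 and 24 had under 10 counts in sham. With at least 10 counts in both libraries 984 of 7716 genes (12.8%) were higher and 441 (5.72%) lower. Among the lowest of these were the histone gene Hist1h3a (37 counts, 2.01 CPM on day 14, 148 CPM in sham), the sarcoglycan gene Sgce (2.18 CPM on day 14, 122 CPM in sham), the apoptosis gene Bmf (2.07 CPM on day 14, 99.96 CPM in sham) and Crlf3 (3.70 CPM on day 14, 133 CPM in sham).

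The day 14 reporter libraries, which share no library with the comparison, held most of the lower genes at 20 CPM or more. Sgce had 123 CPM with EGFP and 118 CPM without it, and Crlf3 had 176 CPM with EGFP and 224 CPM without it. Of the 534 lower genes 435 (81.5%) had at least 20 CPM in 1 or both reporter libraries, close to the 81.8% of the 6291 genes not past the rule, and 7 (1.31%) were under 1 CPM in both. Of the 1008 higher genes 245 (24.3%) had at least 20 CPM in 1 or both, and 319 (31.6%) were under 1 CPM in both. These shares set levels across separately scaled tables from mice of another genotype, and the difference between the day 14 libraries was not tested. By the rule every lower gene had at least 20 CPM in sham, while a higher gene could reach it on day 14 alone. The shares therefore depend in part on this filter.

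**Figure D5:**
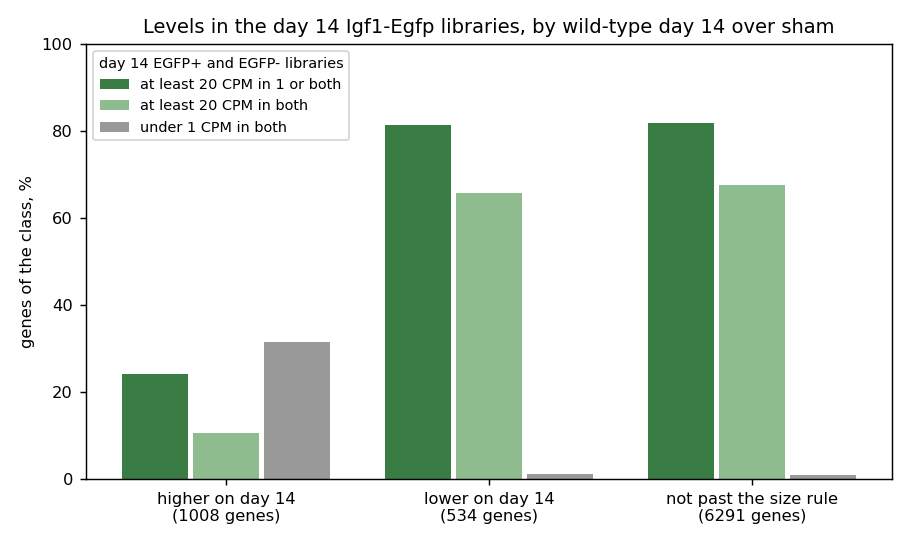
Bars give, for genes higher on day 14 than in sham, lower, or not past the size rule, the percentage with at least 20 CPM in 1 or both day 14 reporter libraries, in both, or with under 1 CPM in both. The share with at least 20 CPM in 1 or both was 81.5% of lower genes, 81.8% of genes not past the rule and 24.3% of higher genes. The classes met the 20 CPM filter through different libraries, which bears on these shares.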

How the data were processed

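Total RNA of the sorted cells was prepared with the Ovation SoLo system, and the wild-type libraries were read on a HiSeq instrument and the day 14 reporter libraries on a NovaSeq one, per the labels' protocols. The deposited values are whole read counts per gene, with no normalization by the authors. The submitters' processing notes name STAR, featureCounts, edgeR, mm10 and GRCm38, and roles, versions and annotation are not given in the sources used here. Groups came from the sample titles, and each compared group has 1 library.

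CPM was computed with TMM factors over the 7 libraries of the time course (edgeR 4.0.16, R 4.3.3), and separately for the day 14 reporter table. The log2 ratio used a pseudocount of 1 CPM, and the size rule asked for an absolute ratio of 2 and 20 CPM in 1 library. Fold intervals are exact (Clopper-Pearson, 95%), from a binomial split of the counts, and cover counting error only; most low counts were even, so the intervals are too narrow if both mates were counted. The ratio script was tested on simulated data. In the comparison 27 genes with date-like or repeated names were kept but not named. Named genes were drawn from 12 genes considered throughout, the 12 highest and 12 lowest past the rule, the 12 lowest with at least 10 counts in both libraries, and, of each list, up to 6 members past the rule and its defining members. Further list members were chosen for naming after their values were seen. Values of some list members are not reported here. The members and lists were chosen with earlier results of these data known.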

Additional observations from a re-analysis of the deposited data

Results flagged for a closer look

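The lists here had a median log2 ratio over sham of opposite sign on day 14 and on another day. Each day had 1 library and all shared the sham library, so the differences were not tested. Each median used members with at least 5 CPM in that day's or the sham library, so the members differed between days. The endothelial median was 4.763 on day 14 and -3.762 on day 28, the mural median 4.061 on day 14 and -2.926 on day 28, and the fibroblast and matrix median 4.41 on day 14 and -1.388 on day 28. In this order the lists had 27, 11 and 12 members on day 14 and 21, 6 and 4 on day 28. The endothelial sum was lower on day 28 (117 CPM) than in sham (734 CPM). The mural sum (109 and 88.2 CPM) and the matrix sum (771 and 98.4 CPM) were higher on day 28 than in sham. The astrocyte median was 1.834 over 6 members on day 14 and -2.686 over 3 members on day 28. The class II antigen presentation median was -1.513 over 11 members on day 14 and 1.096 over 13 members on day 28. With at least 10 counts in the day 14 and the sham library its day 14 median was -0.478. The invariant chain gene Cd74 was at 26.4 CPM in sham, 49.5 on day 14 and 2144 on day 28. The neutrophil median was -1.831 over 6 members on day 14. On days 1, 6 and 28 it was 4.37, 2.635 and 5.114 over 13, 7 and 8 members. With at least 10 counts in the day 14 and the sham library the day 14 neutrophil median was -0.71. The calprotectin gene S100a8 was at 7.80 CPM in sham and then at 490.3 (day 1), 73.0 (day 6), 0.326 (day 14) and 574 CPM (day 28).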

How the results depend on the processing

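With 1 library per condition neither a test nor a repeat without a replicate could be made. No paired analysis was possible because the compared groups hold 1 library each and replicate numbers are shared only by the Yy1 groups. The counts of 1008 higher and 534 lower genes became 1635 and 1485 at a minimum of 5 CPM, 550 and 183 at 50 CPM, 1679 and 1820 with no minimum, and 1773 and 1581 at an absolute log2 ratio of 1. Scaled to 12 core microglia genes, a setting chosen after seeing the data that moved the median by 1.18, they were 2756 and 242. The share of higher genes among those past the rule was 65.4%, against 52.4%, 48.0%, 52.9% and 91.9% at 5 CPM, with no minimum, at a ratio of 1 and with core scaling. Scaling by RLE (relative log expression) moved the median by 0.17 and gave 1134 and 435, and total counts moved it by 0.11 and gave 1104 and 478. Homeostatic genes past the rule lower numbered 7 with RLE, 25 at a ratio of 1 and 1 with core scaling, against 11, and their median stayed below 0 at -0.51 with core scaling. The transcription factor median turned to 0.06 with core scaling. Under RLE the Toll, heat shock and oligodendrocyte medians turned to 0.08, 0.09 and 0.08. Higher members ranged from 14 to 20 for the disease-associated list, 18 to 34 for the interferon list and 22 to 27 for the endothelial list. Halving the counts, as if both mates had been counted, widened the fold intervals by a median of 1.43 times on the log2 scale over 127 genes. Depth limits the lower genes most, and 20 CPM rests on 368 counts on day 14 and 1067 in sham.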

Other observations

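Genes of stress and metal handling had few members past the size rule. Neat1, the nuclear RNA of paraspeckles, stood at 1593 CPM on day 14 and 309 CPM in sham, while Malat1, another nuclear RNA, had a log2 ratio of 0.31. Of 15 heat shock genes, Hspb1 was past the size rule higher (log2 ratio 2.41) and the mitochondrial chaperonin gene Hspe1 lower (-3.17), with a median of -0.08. Of 13 iron genes, Cp, ceruloplasmin, stood at 257 CPM on day 14 and 28.4 CPM in sham and was past the rule with Lcn2. Slc7a11, the cystine importer gene, was the 1 antioxidant gene of 20 past it, at 31.0 CPM on day 14 and 5.85 CPM in sham. The higher shares were 6.67% (heat shock), 15.4% (iron) and 5% (antioxidant), against 12.9% over all genes considered. For heat shock the lower share was 6.67%, against 6.82% over all genes considered.

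Glial markers other than those of microglia differed gene by gene. The astrocyte genes Gja1, a gap junction connexin (20.8 CPM on day 14, 1.24 CPM in sham), and Atp1b2 (66.9 CPM on day 14, 3.67 CPM in sham) were past the rule higher, while Slc1a3, a glutamate transporter, stood at 44.7 CPM on day 14 and 152 CPM in sham. The myelin gene Mal (102 CPM on day 14, 5.44 CPM in sham) was past it higher, and Cnp lower, at 1.74 CPM on day 14 and 23.6 CPM in sham.

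Some genes outside the lists, chosen after their values were seen, were past the rule higher and also had at least 20 CPM in the day 14 reporter libraries. Gadd45b, a stress response gene, stood at 98.7 CPM on day 14 and 4.59 CPM in sham. Il2rg, the common gamma chain of cytokine receptors, stood at 95.8 CPM on day 14 and 4.74 CPM in sham. Cd72 stood at 93.1 CPM on day 14 and 4.76 CPM in sham, and Hcar2, the niacin receptor gene, at 65.1 CPM on day 14 and 4.48 CPM in sham.

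By exonic length the ratios lay close together. Over 7576 genes with a length, the median log2 ratio was 0.17 in the shortest genes, -0.14 in the middle and -0.06 in the longest, and 7.88%, 7.60% and 4.71% of them were past the rule lower.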
